A study of Rattus norvegicus with 23 samples.

Results

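The genes described here are the cytochrome P450 genes of families CYP1, CYP2 and CYP3, which carry out most of the oxidation of drugs and other foreign chemicals in the liver. They were taken by symbol from a table of read counts: 37 of its 28913 rows carry a symbol of these families, and the 30 with 100 or more counts over all 23 libraries were kept. The 7 genes under that minimum had 0 to 36 counts in total. RNA came from whole liver of Sprague Dawley rats, in a study that models a vascular liver disease (portosinusoidal vascular disease). The Selfox group (10 libraries) had a selenium-enriched diet for 8 weeks, with 8 weekly intravenous doses of 25 mg/kg of 5-fluorouracil, 45 mg/kg of folinic acid and 3 mg/kg of oxaliplatin, a combination used as chemotherapy. The LPS group (7 libraries) received lipopolysaccharide, a component of the bacterial cell wall, as a 1 mg/kg bolus 2 times per week over 8 weeks, through a catheter that had been placed by abdominal surgery to reach the portal vein. The Control group (6 libraries) had no treatment. Diet and drugs came together in Selfox, and surgery, catheter and lipopolysaccharide came together in LPS, so their parts cannot be told apart. The labels give neither sex nor age of the rats, nor whether each library is a different rat, so p-values measure the spread between libraries.

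P450 enzymes are haem proteins of the endoplasmic reticulum that receive electrons from NADPH-cytochrome P450 reductase. Their genes are controlled by receptors that sense chemicals. The aryl hydrocarbon receptor AHR drives CYP1 genes, and the nuclear receptors CAR and PXR drive CYP2B and CYP3A genes. In rats, several CYP2C and CYP3A genes also differ strongly between males and females, a pattern set by the rhythm of growth hormone secretion, and inflammatory cytokines are known to lower many hepatic P450 messengers.

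Library totals were 65.1 to 74.8 M (mega) counts in Selfox, 70.4 to 79.2 M in LPS and 31.9 to 53.8 M in Control, so depth differed between both models and Control. All 30 genes passed the filter on low counts. Together they took 1.86 ± 0.161% of the counts in Selfox, 1.70 ± 0.209% in LPS and 1.60 ± 0.147% in Control (mean ± SD). Levels are given as counts per M (CPM) of the scaled library size, without correction for gene length, so they compare libraries and not genes. Hepatocyte markers were present in every library, and the Y-linked genes Eif2s3y and Kdm5d were at 41.5 to 62.9 CPM and 18.2 to 31.9 CPM over all libraries. Dbp is an output gene of the circadian clock, and Arntl a core clock gene that peaks at the opposite time of day. The CPM of Dbp was above that of Arntl in 5 libraries: Selfox 8, LPS 5, LPS 6, LPS 7 and Control 55. As CPM does not compare genes, this rule is an arbitrary cut for sorting libraries. Selfox 8 passed it by a very small margin, 10.18 CPM of Dbp against 10.15 CPM of Arntl. In LPS 6 the values were 93.4 and 1.41 CPM. Hour of collection is not given in the labels, and its part in the results was not tested. Where a P450 call was gained or lost without these 5 libraries, the value without them stands beside it.

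In Selfox livers 7 of the 30 P450 genes (23.3%) passed the threshold, an adjusted p under 0.05 in edgeR's quasi-likelihood test with Benjamini-Hochberg adjustment over all 15079 genes tested, against 29.1% of all genes tested. The difference between these shares was not tested. Those higher than in Control were Cyp2c11, Cyp2c22, Cyp2c23 and Cyp3a18, and those lower were Cyp2d2, Cyp2d5 and Cyp2j4. Of all genes tested 14.2% were higher and 14.9% lower. No called P450 gene changed by 2-fold or more, and the median log2 fold change of the 30 was -0.03, beside 0.01 over all genes tested.

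In LPS livers 6 of the 30 genes (20%) passed, against 14.7% of all genes tested. Cyp1a1, Cyp2a1 and Cyp2r1 were higher than in Control, and Cyp2b2, Cyp2d5 and Cyp2j4 were lower. Over the transcriptome 7.71% of genes were higher and 6.99% lower. Cyp1a1 and Cyp2b2 changed by more than 2-fold. The median log2 fold change of the 30 was 0.13, beside 0.01 over all genes tested. Without the 5 libraries with Dbp above Arntl, 8 P450 genes passed in LPS against Control, 7 of them higher and 1 lower, and 3 of the 6 genes named above were no longer among them.

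Set directly against LPS, Selfox differed in 1 of the 30 genes (3.33%), Cyp2b2, which was higher, against 14.5% of all genes tested (6.86% higher and 7.64% lower). The median log2 fold change was 0.02, beside 0.00 over all genes tested. Both comparisons with Control use the same 6 Control libraries, and 2 genes, Cyp2d5 and Cyp2j4, were lower in both. In total 11 of the 30 genes passed in at least 1 comparison and 19 in none, and 0 genes passed in all 3. For 0 of the 30 genes did the libraries of any 2 groups lie wholly apart. Over all genes tested the share was 4.91% in Selfox against Control, 3.64% in LPS against Control and 1.74% in Selfox against LPS. With only 30 genes, 0 is near these shares, and the difference was not tested.

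**Figure D1:**
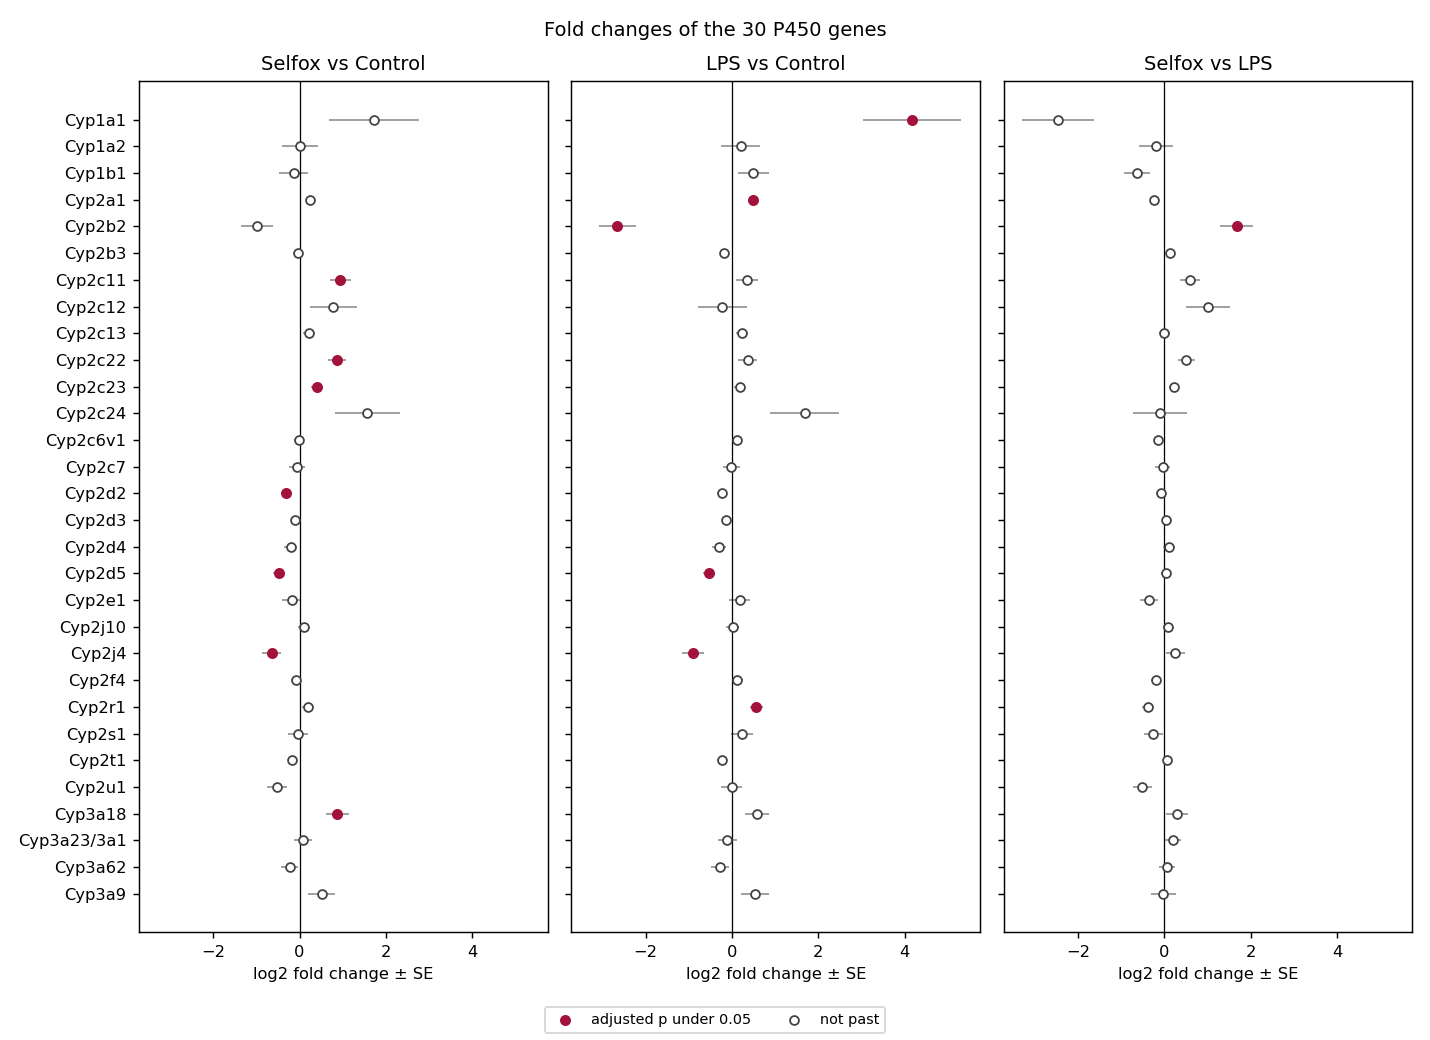
Log2 fold change with its standard error for the 30 P450 genes (rows, grouped by subfamily) in Selfox against Control, LPS against Control and Selfox against LPS (panels, left to right); filled points passed the threshold and open points did not. Filled points number 7, 6 and 1 in the panels, and Cyp1a1 and Cyp2b2 in LPS lie farthest from 0.

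Of the CYP1 genes, the AHR target Cyp1a1, which oxidises polycyclic aromatic hydrocarbons, was called in LPS. Cyp1a1 stood at 0.350 to 46.1 CPM (median 1.79) in LPS and at 0.103 to 1.99 CPM (median 0.397) in Control (log2 fold change 4.17 ± 1.14, adjusted p = 0.0183). The high values came from LPS 1 and LPS 2, at 46.1 and 28.9 CPM. The other LPS libraries lay between 0.350 and 4 CPM, and 3 of the 7 were above every Control library. In Selfox the range was 0.349 to 5.23 CPM (median 1.62) (log2 fold change 1.72 ± 1.04, adjusted p = 0.227 against Control), with 4 of 10 libraries above every Control library. The LPS call was lost with limma voom (adjusted p = 0.234) and where LPS and Control were fitted alone (adjusted p = 0.0723). Selfox against LPS did not pass (log2 fold change -2.45 ± 0.83, adjusted p = 0.0518), but did without the libraries with Dbp above Arntl (log2 fold change -3.10, adjusted p = 0.0343), while without LPS 1 the log2 fold change was -1.47 (adjusted p = 0.249).

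Cyp1a2, the CYP1 enzyme that normal liver expresses and that metabolises caffeine and aromatic amines, did not pass in any comparison. Its levels were 212 to 1022 CPM (median 462) in Selfox, 284 to 1152 CPM (median 552) in LPS and 133 to 951 CPM (median 604) in Control, with wide overlap (log2 fold change 0.01 ± 0.42, adjusted p = 0.989 for Selfox and log2 fold change 0.20 ± 0.45, adjusted p = 0.817 for LPS, each against Control). LPS 1 and LPS 2 again held the highest LPS values of Cyp1a2, at 1152 and 1008 CPM, and those of Cyp1b1, an AHR target found mostly outside hepatocytes, at 1.05 and 1.14 CPM against at most 0.612 CPM in the other LPS libraries. Cyp1b1 was not called in LPS (log2 fold change 0.49 ± 0.36, adjusted p = 0.377), but passed without the libraries with Dbp above Arntl (log2 fold change 1.09, adjusted p = 0.0237), as did the difference between Selfox and LPS (log2 fold change -1.25, adjusted p = 0.00546, against log2 fold change -0.63 ± 0.30, adjusted p = 0.167 with all libraries). Other AHR targets in LPS included Tiparp, an ADP-ribosyltransferase that restrains AHR. Tiparp was 35.6 ± 11.4 CPM in LPS and 17.3 ± 4.51 CPM in Control (log2 fold change 1.04 ± 0.25, adjusted p = 0.00734), with 6 of 7 LPS libraries above every Control library. Its highest library was LPS 5, at 53.1 CPM, followed by LPS 1 and LPS 2 at 47.9 and 37.8 CPM. Nqo1, an AHR target that did not pass in LPS, was highest within LPS in LPS 7, at 43.3 CPM. In LPS 1, LPS 2 and LPS 5 Nqo1 was 30.2, 29.1 and 30.4 CPM. The receptor gene Ahr itself was 75.8 ± 16.6 CPM in LPS and 109 ± 34.2 CPM in Control and did not pass (log2 fold change -0.53 ± 0.20, adjusted p = 0.0717).

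Cyp2a1, a rat steroid hydroxylase that is more abundant in females, was higher in LPS. It stood at 725 to 1027 CPM (median 898) in LPS and 515 to 823 CPM (median 639.8) in Control (log2 fold change 0.48 ± 0.11, adjusted p = 0.00465). Of the 7 LPS libraries 6 lay above every Control library, and the rise was modest, 1.40-fold. In Selfox, Cyp2a1 ranged between 665 and 917 CPM (median 744) and did not pass against Control (log2 fold change 0.24 ± 0.10, adjusted p = 0.0721). The LPS call held in each of the 13 fits with a library left out and in the other 9 alternatives, with adjusted p of at most 0.0176.

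Cyp2b2, the phenobarbital-inducible CYP2B gene that serves as the classic readout of CAR, showed the largest fall of the 30 genes. It stood at 13 to 47.9 CPM (median 28.4) in Selfox, 5.40 to 19.8 CPM (median 6.48) in LPS and 15.2 to 125 CPM (median 59.9) in Control. LPS was lower than Control (log2 fold change -2.65 ± 0.43, adjusted p = 0.000507), with 6 of 7 LPS libraries below every Control library and LPS 1, at 19.8 CPM, above the lowest Control library, Control 41 at 15.2 CPM. Selfox was higher than LPS (log2 fold change 1.67 ± 0.38, adjusted p = 0.00548), with 9 of 10 Selfox libraries above every LPS library. Without the libraries with Dbp above Arntl this last difference was 1.29 on the log2 scale and no longer passed (adjusted p = 0.0904), whereas the difference between LPS and Control still passed (log2 fold change -2.41, adjusted p = 0.00601). Selfox against Control just missed the threshold (log2 fold change -0.98 ± 0.37, adjusted p = 0.0521). Control libraries spread from Control 41 to Control 46, at 125 CPM, and the Selfox difference was -0.65 without Control 46 (adjusted p = 0.207) and -1.17 without Control 41 (adjusted p = 0.0165). Without the libraries with Dbp above Arntl it passed (log2 fold change -1.12, adjusted p = 0.0367).

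The start region of Cyp2b2 is shown because it is the gene with the largest fall. It spans chr1:90722031-90722330 on the plus strand of build GRCr8 and is taken from RefSeq, as are the other start regions given here, each with 250 bases before and 50 after the annotated start. Capitals mark matches to the D-box TTANGTAA, the site of Dbp and related factors, at position -224 from the start, and to GCGTG, the core of the AHR response element, at position -103, on either strand.
Cyp2b2: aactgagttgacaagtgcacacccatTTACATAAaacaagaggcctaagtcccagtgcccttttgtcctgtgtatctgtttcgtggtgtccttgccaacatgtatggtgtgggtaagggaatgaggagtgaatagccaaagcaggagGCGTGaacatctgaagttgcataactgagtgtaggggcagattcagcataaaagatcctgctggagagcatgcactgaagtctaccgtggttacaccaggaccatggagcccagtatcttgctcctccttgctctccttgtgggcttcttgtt
The 2 matches do not overlap. Of the 28 P450 genes with a start region in the RefSeq table, Cyp2b2 was the only one with the D-box (3.57%). Of all 33469 start regions of this length 2.24% hold it, so a single match is near that share. Neither match in Cyp2b2 was tested for function. GCGTG was found in 5 of the 28, against 29.7% of all start regions.

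Nr1i3, which encodes CAR, was 27.9 ± 9.16 CPM in Selfox, 17.2 ± 6.35 CPM in LPS and 29.3 ± 9.52 CPM in Control, and it did not pass in LPS against Control (log2 fold change -0.77 ± 0.27, adjusted p = 0.0627) or in Selfox against LPS (log2 fold change 0.69 ± 0.25, adjusted p = 0.0628). Nr1i2, which encodes PXR, differed little between LPS and Control (log2 fold change -0.00 ± 0.11, adjusted p = 0.995). Cyp2b3, a relative of Cyp2b2 in liver, did not pass in any comparison, at 493 to 796 CPM (median 644) in Selfox, 442 to 708 CPM (median 560.0) in LPS and 521 to 800.3 CPM (median 653) in Control (log2 fold change -0.18 ± 0.11, adjusted p = 0.298 for LPS against Control). Genes of the 2B, 2C, 2D and 3A groups include near-identical copies whose reads can be split or shared by the counting, so single members of these groups are uncertain to that extent.

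**Figure D2:**
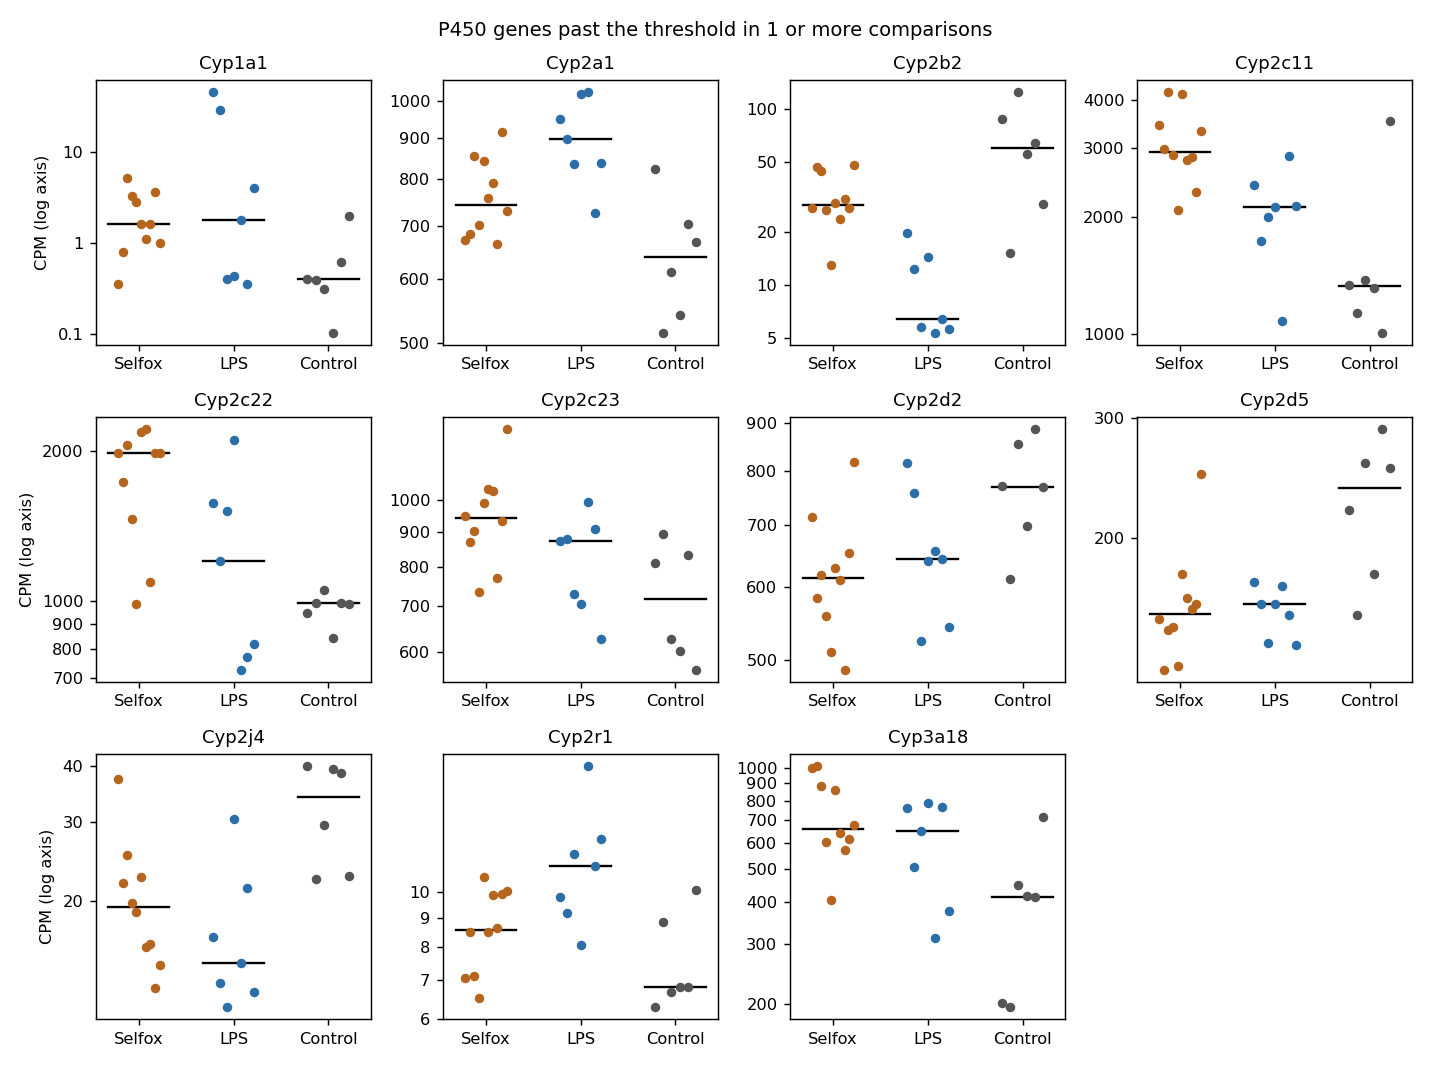
CPM of each library (points, log axis with its own range in each panel) for the 11 P450 genes past the threshold in at least 1 comparison, in Selfox (10), LPS (7) and Control (6); bars are group medians. Groups overlap in every panel, Cyp1a1 in LPS has 2 libraries far above the rest, and Cyp2c22 in LPS falls into 4 libraries above and 3 below the Control range.

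The CYP2C genes, the largest group with 8 of the 30, held 3 of the 4 rises in Selfox: 3 were higher, 0 lower and 5 not past. Of all genes tested 14.2% were higher and 14.9% lower in Selfox. In LPS 0 of the 8 passed, against 14.7% of all genes tested. Cyp2c11, the main P450 of male rat liver and a hydroxylase of androgens, stood at 2089 to 4194 CPM (median 2940.3) in Selfox and 1011 to 3520.5 CPM (median 1328) in Control (log2 fold change 0.94 ± 0.24, adjusted p = 0.00521). Only 2 of 10 Selfox libraries were above every Control library, because Control 55 stood at 3520.5 CPM. The other 5 Control libraries lay between 1011 and 1379 CPM, below all Selfox libraries. Without Control 55 the Selfox rise reached the upper end of the range over left-out libraries, a log2 fold change of 1.33. In LPS Cyp2c11 was 1083 to 2877 CPM (median 2126) and did not pass against Control (log2 fold change 0.35 ± 0.25, adjusted p = 0.377), but did pass without Control 55 (log2 fold change 0.73, adjusted p = 0.00911) and without the libraries with Dbp above Arntl, of which Control 55 is one (log2 fold change 0.74, adjusted p = 0.00817). Selfox against LPS did not pass (log2 fold change 0.59 ± 0.22, adjusted p = 0.0784), but did in 6 other settings: DESeq2 (adjusted p = 0.0401), limma voom (0.0243), these groups fitted alone (0.0259), the fit without the libraries with Dbp above Arntl (0.0258), and the libraries numbered 1 to 7 with and without a replicate block (0.00618 and 0.0396).

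Cyp2c22, known in rats as a hydroxylase of retinoic acid, was also higher in Selfox. Its levels were 988 to 2212 CPM (median 1979) in Selfox and 844 to 1052 CPM (median 989) in Control (log2 fold change 0.87 ± 0.21, adjusted p = 0.00402), and 9 of 10 Selfox libraries exceeded every Control library. Selfox 5 and Selfox 8 were lowest, at 988 and 1091 CPM. In LPS the libraries parted: LPS 1 to LPS 4 lay between 1200.5 and 2101 CPM, above every Control library, and LPS 5 to LPS 7 lay between 728 and 820.0 CPM, below every Control library. LPS as a group did not pass against Control (log2 fold change 0.36 ± 0.22, adjusted p = 0.296). LPS 5 to LPS 7 are also the LPS libraries with Dbp above Arntl, with Dbp at 39.3, 93.4 and 15.8 CPM, against 0.987 to 2.03 CPM in LPS 1 to LPS 4. Without the 5 libraries of that kind, Cyp2c22 passed in LPS against Control (log2 fold change 0.72, adjusted p = 0.0140), and the Selfox difference was 0.93, adjusted p = 0.000285. Within Selfox, Dbp was highest in Selfox 5 and Selfox 8, at 5.33 and 10.2 CPM, against at most 1.93 CPM in the other Selfox libraries. Control 55, with Dbp at 34.2 CPM, had Cyp2c22 at 988 CPM, within the other Control libraries.

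The start regions of Cyp2c11 and Cyp2c22 are given as the pair with the largest CYP2C rises past the threshold in Selfox. They lie at chr1:246174966-246175265 on the plus strand and chr1:248980718-248981017 on the minus strand of GRCr8. Capitals mark matches to TATAAA, the letters of the TATA box, and to the nuclear receptor half-site AGGTCA. Both were searched on both strands and at any position, and no match was tested for function.
Cyp2c11: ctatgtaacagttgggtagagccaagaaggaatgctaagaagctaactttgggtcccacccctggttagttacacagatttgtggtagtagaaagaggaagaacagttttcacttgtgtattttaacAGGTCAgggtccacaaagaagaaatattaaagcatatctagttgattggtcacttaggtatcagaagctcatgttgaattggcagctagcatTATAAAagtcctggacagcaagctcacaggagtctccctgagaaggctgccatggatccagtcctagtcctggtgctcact
Cyp2c22: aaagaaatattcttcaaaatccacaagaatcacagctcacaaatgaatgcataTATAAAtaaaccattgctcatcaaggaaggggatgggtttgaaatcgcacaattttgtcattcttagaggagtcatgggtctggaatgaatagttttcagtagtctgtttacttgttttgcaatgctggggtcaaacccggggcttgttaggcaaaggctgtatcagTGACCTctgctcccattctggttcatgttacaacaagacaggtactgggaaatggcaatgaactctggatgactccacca
Matches of different motifs do not overlap in either region. In Cyp2c11 TATAAA stands at position -31 and the half-site at -123, while in Cyp2c22 TATAAA stands at -197 and the half-site, on the other strand, at -30. Over the 28 P450 start regions, 12 held TATAAA, against 14.2% of all start regions, and 9 held AGGTCA, against 16.2%. Of the 7 CYP2C genes in the table, all but Cyp2c23 held TATAAA.

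Cyp2c23, an epoxygenase of arachidonic acid, was the third CYP2C gene higher in Selfox. It ranged between 734 and 1273 CPM (median 942) in Selfox and between 565 and 893 CPM (median 719) in Control (log2 fold change 0.40 ± 0.12, adjusted p = 0.0183), a 1.32-fold difference. Of the 10 Selfox libraries 7 were above every Control library. Without Control 49 the call was lost (adjusted p = 0.0556). In LPS it ranged between 627 and 995 CPM (median 872) and did not pass (log2 fold change 0.18 ± 0.13, adjusted p = 0.388 against Control).

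The remaining CYP2C genes did not pass in any comparison. Cyp2c13, a male-predominant gene, ranged between 1296 and 2100.3 CPM (median 1641) in Selfox, between 1179 and 2254 CPM (median 1701) in LPS and between 1219 and 1881 CPM (median 1422) in Control (log2 fold change 0.22 ± 0.13, adjusted p = 0.223 for Selfox and log2 fold change 0.23 ± 0.14, adjusted p = 0.304 for LPS). Its highest LPS libraries were LPS 1 and LPS 4, at 2254 and 2219 CPM, and its lowest LPS 7, at 1179 CPM. Without the libraries with Dbp above Arntl, Cyp2c13 passed in LPS (log2 fold change 0.52, adjusted p = 0.0105). Cyp2c12, the female-specific steroid hydroxylase, varied widely within each group, at 39.3 to 436 CPM (median 138) in Selfox, 20.8 to 147 CPM (median 90.7) in LPS and 33.7 to 222 CPM (median 75.1) in Control (log2 fold change 0.78 ± 0.54, adjusted p = 0.291 for Selfox against Control). Selfox 4 and Selfox 6 were highest, at 436 and 422 CPM.

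Cyp2c7, which is more abundant in female rats, was at 1594 to 3439 CPM (median 2578) in Selfox, 1813 to 3209 CPM (median 2854) in LPS and 1511 to 3325 CPM (median 2868) in Control (log2 fold change -0.05 ± 0.18, adjusted p = 0.861 for Selfox and log2 fold change -0.01 ± 0.20, adjusted p = 0.979 for LPS). Control 55, the highest Control library for Cyp2c11, was the lowest for Cyp2c7, at 1511 CPM. Cyp2c6v1, found in both sexes, ranged between 958 and 1419.8 CPM (median 1218) in Selfox, between 1141 and 1571 CPM (median 1363) in LPS and between 908 and 1498 CPM (median 1337) in Control (log2 fold change 0.13 ± 0.11, adjusted p = 0.490 for LPS). Cyp2c24 stayed at or under 5.22 CPM in all libraries and had the largest fold changes among the 19 genes called in no comparison, 1.57 on the log2 scale in Selfox and 1.68 in LPS, with standard errors of 0.76 and 0.80.

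By textbook sex pattern in rats, 2 of the 3 measured male-predominant genes (Cyp2c11 and Cyp3a18, with Cyp2c13 the exception) were higher in Selfox, and 0 of 3 passed in LPS. Of all genes tested 14.2% were higher in Selfox and 7.71% in LPS. Without the libraries with Dbp above Arntl all 3 male-predominant genes were higher in LPS against Control, and without Control 55 alone 2 of them, Cyp2c11 and Cyp3a18, were. Of the 4 female-predominant genes (Cyp2a1, Cyp2c7, Cyp2c12 and Cyp3a9), 0 passed in Selfox and 1, Cyp2a1, was higher in LPS, while without the libraries with Dbp above Arntl Cyp3a9 was higher in Selfox. Of 15 growth hormone axis genes tested, 1 was higher and 3 lower in Selfox, where 29.1% of all genes tested were called against Control. In LPS, where 14.7% of all genes tested were called against Control, 1 was higher and 3 were lower. Socs2, a feedback inhibitor of growth hormone signalling, was 51.5 ± 23.8 CPM in Selfox and 129 ± 52.7 CPM in Control (log2 fold change -1.32 ± 0.44, adjusted p = 0.0285). The receptor gene Ghr was 620.0 ± 63.8 CPM in Selfox and 459 ± 71.2 CPM in Control (log2 fold change 0.43 ± 0.09, adjusted p = 0.00103). Igf1, the main growth hormone target of liver, was 706 ± 137 CPM in LPS and 966 ± 168 CPM in Control (log2 fold change -0.45 ± 0.13, adjusted p = 0.0247), and in Selfox it was 948 ± 139 CPM (log2 fold change -0.03 ± 0.12, adjusted p = 0.897 against Control). The Socs2 call was lost in 3 of 16 fits with a library left out and without a filter on low counts, and the Igf1 call in 2 of 13 and without the libraries with Dbp above Arntl.

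The CYP2D genes, relatives of the human enzyme that metabolises debrisoquine and many antidepressants, moved down or did not pass. In Selfox 2 of the 4 were lower and 0 higher, and in LPS 1 was lower and 0 higher. Of all genes tested 14.9% were lower in Selfox and 6.99% in LPS. Cyp2d5 was 128 to 248 CPM (median 155) in Selfox, 139 to 173 CPM (median 160.0) in LPS and 154 to 289 CPM (median 237) in Control. It was lower in Selfox (log2 fold change -0.48 ± 0.13, adjusted p = 0.00636), with 5 of 10 libraries below every Control library and Selfox 10 well above the other 9. It was lower in LPS as well (log2 fold change -0.52 ± 0.14, adjusted p = 0.0137), with 3 of 7 libraries below every Control library. The LPS call was lost without the libraries with Dbp above Arntl (log2 fold change -0.48, adjusted p = 0.0854).

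The start region of Cyp2d5 is shown as that of a gene lower in both models, at chr7:115784438-115784737 on the minus strand of GRCr8, and that of Cyp2j4, the other such gene, at chr5:116322993-116323292 on the minus strand. Capitals mark a match to TATAAA in Cyp2d5, found only as its reverse complement at position -86. In Cyp2j4 they mark the palindrome TTCNNNGAA, to which STAT5, the factor downstream of the growth hormone receptor, can bind, at position -160.
Cyp2d5: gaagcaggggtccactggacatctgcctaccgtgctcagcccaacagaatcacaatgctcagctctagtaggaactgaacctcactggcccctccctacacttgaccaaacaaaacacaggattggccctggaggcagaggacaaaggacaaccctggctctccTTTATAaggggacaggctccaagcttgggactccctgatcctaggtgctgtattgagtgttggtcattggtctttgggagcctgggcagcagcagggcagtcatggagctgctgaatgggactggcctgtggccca
Cyp2j4: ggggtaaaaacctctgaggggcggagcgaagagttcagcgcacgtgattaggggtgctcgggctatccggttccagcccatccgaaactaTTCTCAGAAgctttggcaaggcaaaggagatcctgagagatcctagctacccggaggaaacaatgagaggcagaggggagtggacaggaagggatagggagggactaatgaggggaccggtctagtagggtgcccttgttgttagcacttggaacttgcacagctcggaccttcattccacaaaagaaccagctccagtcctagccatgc
The palindrome was present in the start regions of Cyp2j4 and Cyp2t1, 2 of 28, and in 8.87% of all start regions. The half-site GTTAAT of HNF1 was present in 1 of 28, Cyp2d2, and in 7.45% of all.

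Cyp2d2, the rat hydroxylase of debrisoquine, was lower in Selfox, where it was 489 to 819 CPM (median 614), against 612 to 888 CPM (median 769.5) in Control (log2 fold change -0.31 ± 0.11, adjusted p = 0.0362). In Selfox 5 of 10 libraries were below every Control library. That call was lost in 8 of the 16 fits with a library left out (adjusted p up to 0.115), without a filter on low counts (0.0637) and without the libraries with Dbp above Arntl (0.0770). In LPS Cyp2d2 ranged between 525 and 815 CPM (median 642) and did not pass (log2 fold change -0.23 ± 0.12, adjusted p = 0.208). Cyp2d3 did not pass, with 508 to 672 CPM (median 597) in Selfox, 490.4 to 689.8 CPM (median 576) in LPS and 584 to 717 CPM (median 638) in Control (log2 fold change -0.14 ± 0.09, adjusted p = 0.282 for LPS).

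Cyp2j4, which forms epoxides of arachidonic acid, was lower in both models. It ranged between 12.8 and 37.5 CPM (median 19.4) in Selfox, between 11.6 and 30.4 CPM (median 14.5) in LPS and between 22.4 and 40.03 CPM (median 34.1) in Control. In LPS, where the log2 fold change was -0.90 ± 0.25 (adjusted p = 0.0167), 6 of 7 libraries lay below every Control library, LPS 4 at 30.4 CPM being the exception. In Selfox, where it was -0.65 ± 0.22 (adjusted p = 0.0332), 7 of 10 libraries lay below every Control library and Selfox 1, at 37.5 CPM, was the highest. The Selfox call was lost in 8 of 16 fits with a library left out (adjusted p up to 0.0849) and without a filter on low counts (0.0638), and the LPS call without the libraries with Dbp above Arntl, where the log2 fold change was -0.92, adjusted p = 0.0609. Its relative Cyp2j10 did not pass, at 118 to 207 CPM (median 156) in Selfox, 113 to 206 CPM (median 138) in LPS and 127 to 177 CPM (median 148) in Control (log2 fold change 0.10 ± 0.13, adjusted p = 0.596 for Selfox).

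Cyp2e1, the ethanol- and paracetamol-oxidising enzyme of pericentral hepatocytes, did not pass in any comparison. It was 683 to 1533 CPM (median 1123) in Selfox, 826 to 2169 CPM (median 1162) in LPS and 889 to 1538 CPM (median 1293) in Control (log2 fold change -0.18 ± 0.21, adjusted p = 0.550 for Selfox and log2 fold change 0.18 ± 0.23, adjusted p = 0.662 for LPS). In LPS the libraries spread widely: LPS 4, LPS 5 and LPS 6 stood between 1774 and 2169 CPM, above every Control library, and LPS 3 at 826 CPM, below every one. The summed level of 17 pericentral markers without P450 genes was 2523 ± 398 CPM in Selfox, 2481 ± 262 CPM in LPS and 2432 ± 386 CPM in Control. Of the 17, 0 were higher and 4 lower in Selfox against Control, 1 was higher and 1 lower in LPS against Control, and 2 were higher and 4 lower in Selfox against LPS. Over all genes tested, 29.1%, 14.7% and 14.5% were called in these comparisons.

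Cyp2r1, a vitamin D hydroxylase of liver, was higher in LPS, at 8.07 to 16.6 CPM (median 11.1), against 6.29 to 10.1 CPM (median 6.82) in Control (log2 fold change 0.57 ± 0.15, adjusted p = 0.0153). Of the 7 LPS libraries 4 were above every Control library, with LPS 5 highest. Without the libraries with Dbp above Arntl the log2 fold change was 0.44 and the adjusted p 0.0519. In Selfox it ranged between 6.51 and 10.6 CPM (median 8.58) and did not pass (log2 fold change 0.19 ± 0.14, adjusted p = 0.325). The other CYP2 genes, Cyp2f4, Cyp2s1, Cyp2t1 and Cyp2u1, did not pass. Cyp2u1, a fatty acid hydroxylase, came nearest, at 0.737 to 2.22 CPM (median 1.10) in Selfox and 1.27 to 2.57 CPM (median 1.82) in Control (log2 fold change -0.52 ± 0.23, adjusted p = 0.0928). Cyp2f4, a P450 best known from lung, had medians of 31.1 CPM in Selfox, 33.4 CPM in LPS and 30.3 CPM in Control. Over the 19 genes called in no comparison, log2 fold changes ran between -0.52 and 1.57 in Selfox against Control and between -0.30 and 1.68 in LPS against Control, with lowest adjusted p of 0.0928 and 0.160. The genes at these ends were Cyp2u1 and Cyp2c24 in Selfox, and Cyp2d4 and Cyp2c24 in LPS.

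Of the 4 CYP3A genes, which metabolise steroids and a large share of drugs, 1 was higher in Selfox and 0 passed in LPS. Of all genes tested 14.2% were higher in Selfox, and 14.7% passed in either direction in LPS. Cyp3a18, a male-predominant steroid hydroxylase, was 406 to 1013 CPM (median 661) in Selfox, 314 to 786 CPM (median 650.4) in LPS and 196 to 715 CPM (median 415) in Control. Selfox was higher (log2 fold change 0.87 ± 0.27, adjusted p = 0.0180), with 4 of 10 libraries above every Control library. LPS was not past the threshold (log2 fold change 0.58 ± 0.28, adjusted p = 0.177), and passed without Control 55, the highest Control library at 715 CPM (log2 fold change 0.83, adjusted p = 0.0392), and without the libraries with Dbp above Arntl (1.01, adjusted p = 0.0233).

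Cyp3a23/3a1, the PXR-inducible CYP3A gene, did not pass. It ranged between 1314 and 2213 CPM (median 1494) in Selfox, between 848 and 2343 CPM (median 1081) in LPS and between 907 and 1917 CPM (median 1599) in Control (log2 fold change 0.09 ± 0.21, adjusted p = 0.783 for Selfox and log2 fold change -0.11 ± 0.22, adjusted p = 0.799 for LPS). LPS 4 and LPS 6 were highest of all libraries at 2343 and 2306 CPM, and the other LPS libraries lay at or under 1454 CPM. The same LPS 4 and LPS 6 led the LPS group for Cyp3a62, at 18.2 and 18.2 CPM. Cyp3a9, more abundant in females, was 33.2 to 103 CPM (median 69.7) in Selfox, 30.7 to 99.1 CPM (median 63.7) in LPS and 22.4 to 89.1 CPM (median 40.98) in Control. It did not pass in Selfox (log2 fold change 0.51 ± 0.31, adjusted p = 0.221), but did without the libraries with Dbp above Arntl (log2 fold change 0.86, adjusted p = 0.0318).

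**Figure D3:**
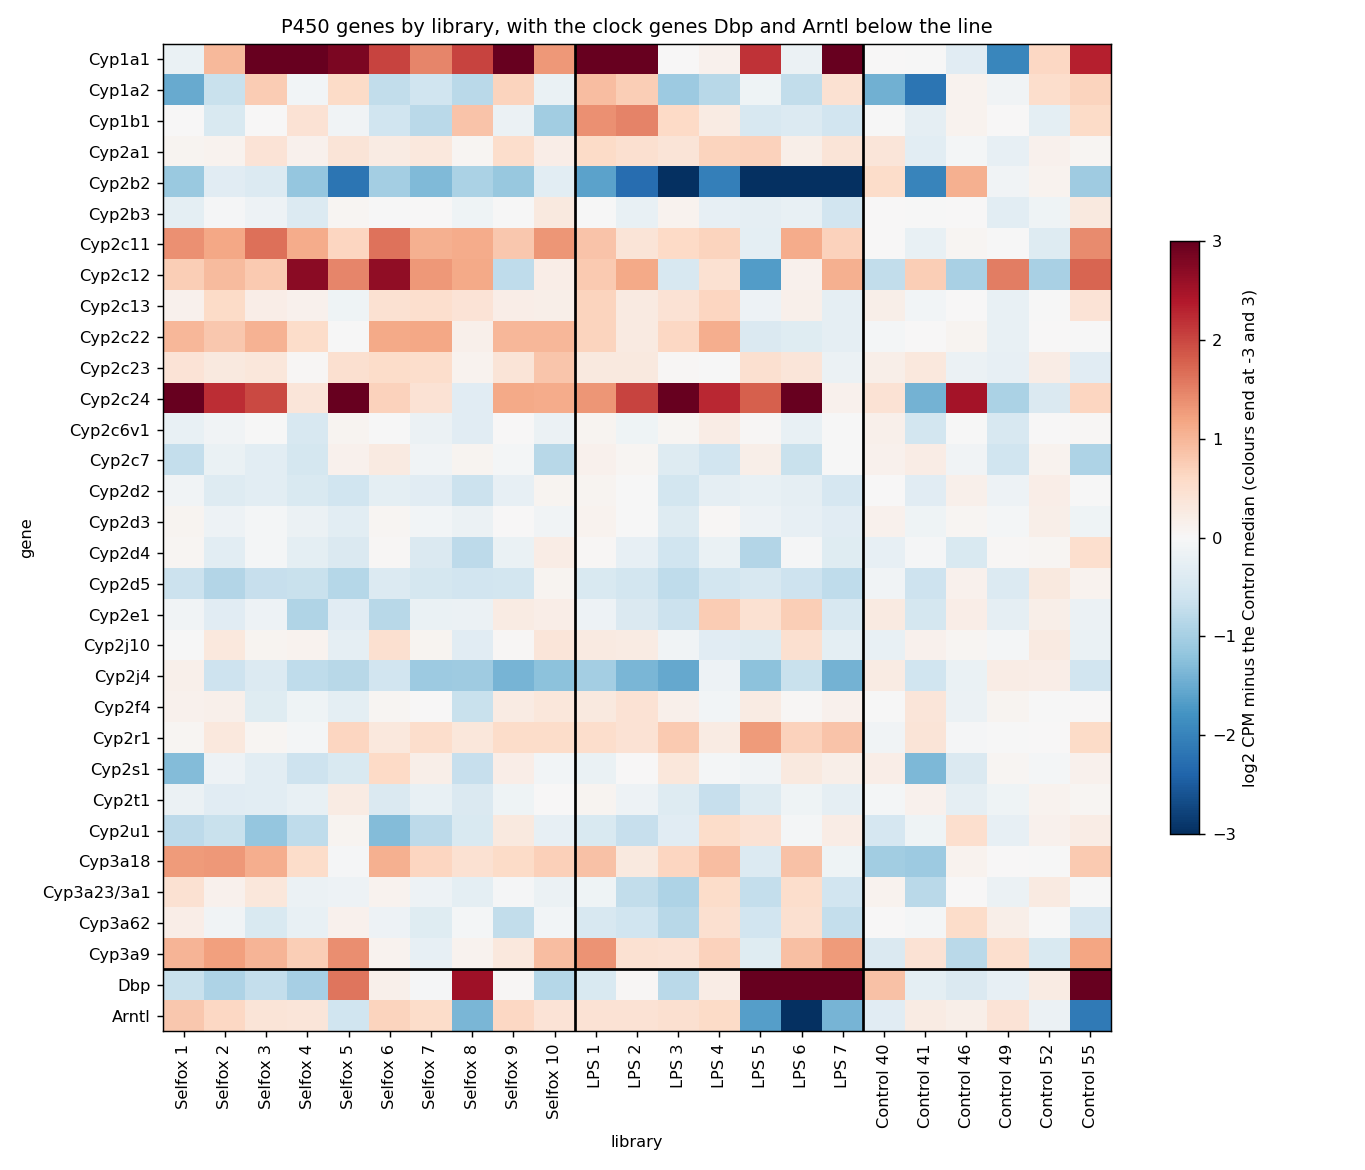
Log2 CPM of the 30 P450 genes in each of the 23 libraries (columns, Selfox, LPS, Control from left to right) minus the Control median of the gene, with the clock genes Dbp and Arntl below the line. Cyp2b2 is low across LPS, Cyp2c11 is high across Selfox and in Control 55, and LPS 5, LPS 6 and LPS 7 show high Dbp, low Arntl and Cyp2c22 below the Control median.

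The P450 system also needs electron donors and haem. Of 10 electron donors and membrane partners tested, 2 were higher and 1 lower in Selfox, and 3 higher and 0 lower in LPS. For this and the lists below, 29.1% of all genes tested were called in Selfox and 14.7% in LPS, each against Control. Por, the reductase that supplies all microsomal P450 enzymes with electrons, was 242 ± 47.7 CPM in Selfox, 368 ± 87.95 CPM in LPS and 424 ± 97.9 CPM in Control. It was lower in Selfox than in Control (log2 fold change -0.81 ± 0.15, adjusted p = 0.000272), where 10 of 10 Selfox libraries were below every Control library, and lower than in LPS (log2 fold change -0.61 ± 0.14, adjusted p = 0.00481). Cyb5r3, which reduces the second electron donor cytochrome b5, was 210.0 ± 36.04 CPM in Selfox, 159 ± 29.2 CPM in LPS and 111 ± 11.3 CPM in Control. It was higher in Selfox (log2 fold change 0.92 ± 0.12, adjusted p = 1.59e-05) and in LPS (log2 fold change 0.52 ± 0.13, adjusted p = 0.00966), each library of both models lying above every Control library. Cyb5b, the outer mitochondrial membrane form of cytochrome b5, was higher in both too (log2 fold change 0.52 ± 0.13, adjusted p = 0.00384 in Selfox and log2 fold change 0.44 ± 0.14, adjusted p = 0.0300 in LPS), the LPS call being lost in 6 of 13 fits with a library left out.

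Of 14 haem synthesis and breakdown genes, 1 was higher and 2 were lower in Selfox, and 0 passed in LPS, where the lowest adjusted p was 0.0886 for Alad. Alas1, the rate-limiting enzyme of hepatic haem synthesis, was 219.7 ± 71.9 CPM in Selfox, 394 ± 128 CPM in LPS and 424 ± 167 CPM in Control. Selfox was lower than Control (log2 fold change -0.95 ± 0.26, adjusted p = 0.00801), with 6 of 10 libraries below every Control library, and lower than LPS (log2 fold change -0.84 ± 0.25, adjusted p = 0.0231). The difference between Selfox and LPS was lost in 4 of 11 other settings, the one without the libraries with Dbp above Arntl among them, and in 2 of 17 fits with a library left out. Blvra, which reduces biliverdin, was lower in Selfox (log2 fold change -0.31 ± 0.09, adjusted p = 0.00882), and Ppox, a late enzyme of haem synthesis, was higher (log2 fold change 0.31 ± 0.09, adjusted p = 0.0124).

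Of 22 xenobiotic receptors and hepatocyte factors, 4 were higher and 4 lower in Selfox, and 3 higher and 1 lower in LPS. Hnf4a, the nuclear receptor on which many hepatic P450 genes depend, was 492 ± 75.5 CPM in Selfox and 708 ± 74.5 CPM in Control (log2 fold change -0.53 ± 0.09, adjusted p = 0.000198). Nr0b2, the bile acid-induced repressor SHP, was 6.27 ± 3.25 CPM in Selfox, 23.5 ± 9.38 CPM in LPS and 24.3 ± 9.16 CPM in Control (log2 fold change -1.95 ± 0.30, adjusted p = 9.02e-05 for Selfox against Control), with 10 of 10 Selfox libraries below every Control library. Nfe2l2, which encodes the oxidative stress factor NRF2, was higher in Selfox (log2 fold change 0.92 ± 0.15, adjusted p = 0.000105) and in LPS (log2 fold change 0.77 ± 0.16, adjusted p = 0.00212). Arnt, the partner of AHR, was higher in both (log2 fold change 0.32 ± 0.08, adjusted p = 0.00268 in Selfox and log2 fold change 0.32 ± 0.08, adjusted p = 0.0107 in LPS). Rxrb, a retinoid X receptor and so of the partner family of CAR and PXR, was lower in Selfox (log2 fold change -0.45 ± 0.07, adjusted p = 6.28e-05).

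**Figure D4:**
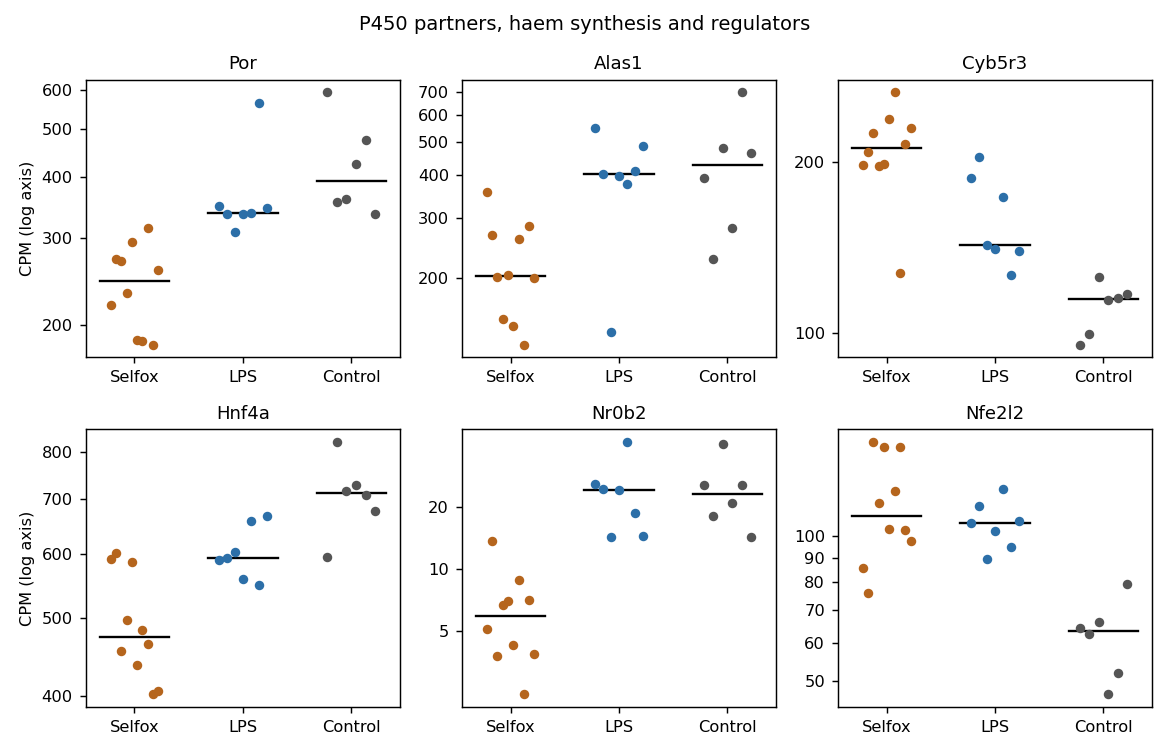
CPM of each library (points, log axis with its own range in each panel) for Por, Alas1, Cyb5r3, Hnf4a, Nr0b2 and Nfe2l2 in Selfox (10), LPS (7) and Control (6); bars are group medians. All Selfox libraries lie below all Control libraries for Por and Nr0b2 and above them for Cyb5r3.

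Of 12 CAR and PXR targets outside the P450 families, 2 were higher and 2 lower in Selfox, and 0 higher and 1 lower in LPS. The 2 lower in Selfox were Por and Alas1, which the lists of electron donors and haem genes above also count. Gsta3, a glutathione transferase, was 27.5 ± 22 CPM in Selfox, 2.50 ± 1.13 CPM in LPS and 2.26 ± 1.75 CPM in Control (log2 fold change 3.60 ± 0.64, adjusted p = 0.000346 for Selfox against Control). Aldh1a1, a retinaldehyde dehydrogenase, was 56.2 ± 29.6 CPM in LPS and 167 ± 117 CPM in Control (log2 fold change -1.57 ± 0.48, adjusted p = 0.0311), a call lost in 7 of 13 fits with a library left out and in 2 of 9 other settings. Of 6 AHR targets outside the P450 families 1 was higher in Selfox and 2 in LPS, Tiparp and Nfe2l2 in LPS and Nfe2l2 in Selfox, and 0 were lower. Nfe2l2 is also counted among the xenobiotic receptors and hepatocyte factors, as is Hnf4a, which the growth hormone axis list counts too.

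Of 21 acute phase and cytokine genes, 7 were higher in Selfox and 5 in LPS, and 0 were lower in either. Ccl2, a monocyte chemokine, was 32.7 ± 38.9 CPM in Selfox and 0.455 ± 0.397 CPM in Control (log2 fold change 6.13 ± 1.12, adjusted p = 0.000414). Haptoglobin (Hp), an acute phase protein, was 12494 ± 2247 CPM in LPS and 8445 ± 1712 CPM in Control (log2 fold change 0.57 ± 0.15, adjusted p = 0.0151). The Ccl2 call was lost with limma voom, and the Hp call without the libraries with Dbp above Arntl. The part of these signals in the P450 values was not tested.

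Of 23 P450 genes of other families that were tested, 8 were higher and 5 lower in Selfox, and 6 were higher and 4 lower in LPS. Cyp4a1, a fatty acid hydroxylase controlled by PPARα, was 190.3 ± 54.3 CPM in Selfox, 124 ± 57.2 CPM in LPS and 567 ± 232 CPM in Control (log2 fold change -1.57 ± 0.29, adjusted p = 0.000430 for Selfox and log2 fold change -2.19 ± 0.33, adjusted p = 0.000318 for LPS). Control 55 stood at 134 CPM, against 486 to 763 CPM in the other Control libraries. Below every Control library lay 1 of 10 Selfox and 5 of 7 LPS libraries. Cyp17a1, a steroid hydroxylase and lyase, was lower in both (log2 fold change -1.48 ± 0.33, adjusted p = 0.00185 in Selfox and log2 fold change -2.19 ± 0.37, adjusted p = 0.000657 in LPS). Cyp7b1, an oxysterol hydroxylase of bile acid synthesis, was higher in both (log2 fold change 1.36 ± 0.20, adjusted p = 3.57e-05 in Selfox and log2 fold change 1.12 ± 0.21, adjusted p = 0.00112 in LPS).

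Levels of marker genes of several cell types also differed between the groups. In Selfox 11 of 11 Kupffer cell markers were lower than in Control, and their sum was 371 ± 60.6 CPM in Selfox, 898 ± 145 CPM in LPS and 962 ± 109 CPM in Control. Of 6 neutrophil markers tested, 5 were higher in Selfox than in Control and 0 passed in LPS, and the sum of all 8 was 36.1 ± 40.3 CPM in Selfox, 7.99 ± 2.90 CPM in LPS and 7.35 ± 3.19 CPM in Control. Periportal hepatocyte markers were higher for 7 of 13 in Selfox and 5 of 13 in LPS, with 0 lower, and summed to 13408 ± 1838 CPM in Selfox, 12978 ± 1214 CPM in LPS and 10516 ± 2129 CPM in Control. The 7 general hepatocyte markers, albumin included, summed to 139652 ± 8329 CPM in Selfox, 156647 ± 25999.8 CPM in LPS and 178861 ± 27526 CPM in Control, with 0 of them at 0 in any group. Albumin itself was 94201 ± 8849 CPM in Selfox, 110493 ± 23936 CPM in LPS and 133601 ± 25584 CPM in Control. Of the 7, 2 were higher and 3 lower in Selfox against Control, and 1 was higher and 0 lower in LPS. In whole tissue, fewer cells of a type and less RNA per cell cannot be told apart. The part of these shifts in the P450 values was not tested.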

How the data were processed

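The deposited table holds whole-number read counts per gene, made by the authors with FastQC, Trim Galore, STAR 2.7.9a and featureCounts of Subread 2.0.3, per the submitters' processing notes. Libraries came from a stranded mRNA kit, per the labels' protocols. Not given in the sources used here are the strand setting, the annotation release and the build of the genome, which leaves overlapping and antisense genes uncertain. Of the counts between 1 and 9, 66.1% to 74.9% per library were even, as counting both mates of a pair would give.

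Groups came from the treatment label. edgeR 4.0.16 (R 4.3.3) was run on the counts as deposited. Genes were kept by filterByExpr with a minimum count of 10 (15079 of 21753 with any count), scaled by TMM, and all 23 libraries were fitted together. The 3 comparisons were tested by quasi-likelihood F tests, with p adjusted after Benjamini and Hochberg over all genes tested and a threshold of 0.05. The standard error was taken as the absolute log2 fold change over the root of F. The biological coefficient of variation was 0.235. The steps were tested on simulated data.

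Members given one by one were those past the threshold in any comparison or with a mean log2 CPM of 6 or more, and at least 1 per subfamily; the few others named were chosen after their values were seen. Of the pathway lists, genes were eligible by adjusted p, up to 4 per comparison, and only some of these are named; Ahr, Nr1i2 and Nr1i3 were added as receptors of interest. Members and lists were chosen with earlier results of these data known. The fit was repeated with RLE or upper-quartile factors, without a filter, with a minimum count of 50, DESeq2 1.42.0, limma 3.58.1 voom, 2 groups fitted alone, thinning to equal depth, each library left out, the libraries with Dbp above Arntl left out, or a block for the replicate number. No batch is given in the labels. RefSeq start regions (GRCr8) matched 28 of the 30 symbols, 1 through an older symbol; Cyp1a1 and Cyp2c6v1 had none.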

Additional observations from a re-analysis of the deposited data

Results flagged for a closer look

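In 2 of the 75 sets of values checked (25 P450 genes in each of 3 groups, by the gap of an extreme library relative to the range of its group), 1 library stood apart from the others; chance gives about 1 in 20. Cyp2d5 was 248 CPM in Selfox 10, against 128 to 177 CPM in the other 9 Selfox libraries. Cyp2c11 was 3520.5 CPM in Control 55, against 1011 to 1379 CPM in the other 5 Control libraries. Control 55 also had Dbp at 34.2 CPM and Arntl at 6.01 CPM.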

How the results depend on the processing

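Across 2247 values of the 30 genes under the alternatives, 26 lost a call, 49 gained one and 0 called values changed direction. Only genes called with all libraries could lose a call, so the 26 are not a share of the 2247. Losses were most frequent for Cyp2d2 and Cyp2j4 in Selfox against Control. Each was lost in 8 of 16 fits with a library left out, and in 2 and 1 of 9 other settings. The count of P450 genes called in LPS against Control was 5 to 8 under the other settings and 6 to 8 with 1 library left out (6 with all). In Selfox against Control it was 5 to 9 and 5 to 8 (7 with all). In Selfox against LPS, where 1 gene was called, the count was 2 with a minimum count of 50, 3 with DESeq2, 2 with limma voom, 2 with these groups fitted alone, 3 without the libraries with Dbp above Arntl, and 1 to 4 with 1 library left out. There the 14 libraries numbered 1 to 7 gave 4 with the replicate block and 2 without the block; deviations of libraries with the same number correlated at -0.06 to 0.18, and 1 of 7 LPS libraries correlated best with its own number, so the numbers were not taken as pairs. Cyp1a1 in Selfox against LPS (log2 fold change -2.45, adjusted p = 0.0518) and Cyp2b2 in Selfox against Control (adjusted p = 0.0521) each passed in 8 settings, but without LPS 1 Cyp1a1 was -1.47 (adjusted p = 0.249) and without Control 46 Cyp2b2 was -0.65 (adjusted p = 0.207).

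Of the clock genes, without the libraries with Dbp above Arntl, Tef in LPS against Control was -0.48 on the log2 scale (adjusted p = 0.0386), and in Selfox against LPS Dbp was 0.19, Per3 0.43 and Ciart 0.68, in each case opposite in sign to the value with all libraries; the cause was not tested. Cyp1a1, Cyp1b1, Cyp2c24, Cyp2s1 and Cyp2u1 were at a few CPM or less in most libraries, where depth limits precision.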
